A study of Homo sapiens with 7 samples.

Results

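Guide 2 was compared with guide 1, a pair of guide RNAs aimed at the same regulatory region of TMCC2, in HUDEP-2 cells. The comparison took 4 of the 7 libraries of the study, chosen by the guide named in their labels: 2 libraries with guide 1 and 2 with guide 2. The 3 libraries with a non-targeting guide served as the reference level for both. HUDEP-2 is an immortalised human line from cord blood that behaves as an erythroid progenitor, so each group stands for this 1 line and not for primary cells. All 3 groups were expanded in a serum-free medium with stem cell factor, erythropoietin, dexamethasone and doxycycline, infected with lentivirus for CRISPR interference, and then moved for 72 h to a differentiation medium with transferrin, insulin, heparin, human plasma and serum and 3 IU/ml erythropoietin. The groups differed in the guide sequence alone, per the labels. Whether a library came from a clone or from a pool of infected cells, and whether replicates were separate cultures, is not given in the sources used here, and the p-values reflect only how these libraries scatter, which may be technical.

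In CRISPR interference a Cas9 without cutting activity, fused or tethered to a repressor, is led by a guide to matching DNA next to a short PAM motif, and lowers transcription from that place. Guides to the same element that lower the same gene can share the consequences of that loss, while each guide can also act at other sites of its own. TMCC2 encodes a membrane protein with coiled-coil domains that is abundant in maturing red cells, and the study aimed the guides upstream of its erythroid isoform.

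The 3 guides are shown because the comparison is one of sequence: the capitals mark the 12 bases nearest to the PAM, where Cas9 tolerates mismatches least.

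Guide 1: gtcgtgctGCAGGTGAAGTG
Guide 2: ccatccttCAGAGTAAACAG
Non-targeting guide: atcgcgaggACCCGTTCCGCC

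Guide 1 had 60.0% G and C, guide 2 had 45.0% and the non-targeting guide 71.4%. Aligned from the 5′ end, guides 1 and 2 carried the same base at 6 of 20 positions, and the longest stretch present in both was 3 bases. None of the 3 sets of 12 bases, followed by the PAM NGG on either strand, occurred in 35116 RefSeq promoter windows of GRCh38.p14. No full copy of a guide occurred there either, so the windows did not hold the intended TMCC2 site of guides 1 and 2. The rest of the genome was not searched, so sites outside these windows are unknown. The last 8 bases followed by NGG were found in 35 windows (0.0997%) for guide 1 (GTGAAGTG), in 22 (0.0626%) for guide 2 (GTAAACAG) and in 52 (0.148%) for the non-targeting guide (GTTCCGCC). Among the genes chosen for description, 100 had a window, and 1 of these held such a match for guide 1, 1 for guide 2 and 0 for the non-targeting guide. The matches are printed with the 8 bases and the PAM in capitals, on GRCh38.p14.

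RCOR1, guide 1, chr14:102592644-102592666, plus strand: tagttggtgccaGTGAAGTGAGG
JUNB, guide 2, chr19:12791316-12791338, minus strand: gcgcgtgtccttGTAAACAGCGG

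The RCOR1 window shared 13 of 20 bases with guide 1, and the JUNB window 11 of 20 with guide 2. RCOR1, which encodes a corepressor partner of the demethylase LSD1, stood at 16.2 and 15.4 CPM with guide 1 and at 18.0 and 21.5 CPM with guide 2 (log2 difference 0.33, SE 0.19, unadjusted p = 0.112, and 0.20 without guide 2 replicate 2). JUNB, an AP-1 transcription factor gene, stood at 110 and 111 CPM with guide 1 and at 121 and 133 CPM with guide 2 (log2 difference 0.20, SE 0.14, unadjusted p = 0.182 by edgeR). In the non-targeting libraries RCOR1 was at 20.5, 14.6 and 17.3 CPM, a range that held both guide 1 libraries. JUNB was at 159, 200 and 156 CPM there, so both guides lay below every control. Levels are in CPM, the usual scaling of counts to a common library size, here after TMM adjustment, and log2 differences are guide 2 minus guide 1 throughout.

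The guide libraries held 10297535 to 10870809 counts, within the 9780800 to 11350113 of all 7. Globin genes took 26.7% to 26.8% of counts with guide 1 and 25.3% to 25.7% with guide 2. The erythroid markers HBB, ALAS2, SLC4A1 and GATA1 were measured in every library. Markers of other cell types were low or absent, apart from 2 of the megakaryocyte list. Over the 7 libraries TUBB1 stood at 122 to 157 CPM and ITGA2B at 44.0 to 73.6 CPM. Among 12 lymphocyte markers, 8 were at 0 in all 7 libraries and the summed level was 0.28 to 1.12 CPM of total counts. Neutrophil and monocyte markers summed to 6.51 to 9.69 CPM (4 of 14 at 0), those of stroma and endothelium to 12.3 to 15.6 CPM (5 of 10 at 0), those of mast cells and basophils to 20.2 to 24.7 CPM (3 of 8 at 0), and those of megakaryocytes to 177 to 214 CPM (5 of 13 at 0, PF4 and PPBP among them, with ITGA2B and TUBB1 carrying most of the sum).

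TMCC2 itself was silenced to a like extent. It stood at 832, 839 and 937 CPM in the non-targeting libraries, at 229 and 219 CPM with guide 1 and at 229 and 260 CPM with guide 2. These levels were 25.7% and 28.2% of the non-targeting mean. The highest guide library was far below the lowest non-targeting one, and the first library of guide 2 was level with the first of guide 1. The ratio of guide 2 to guide 1 was 1.09, with a 95% interval of 0.92 to 1.31 (adjusted p = 0.983, Benjamini-Hochberg over all genes in the edgeR quasi-likelihood fit). A difference in silencing of more than 1.31 times was therefore outside the interval, and a smaller one could not be told from none. Levels in bulk RNA do not separate fewer cells expressing a gene from less RNA per cell.

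Over all 10212 genes tested, 0 differed between the guides at an adjusted p under 0.05 by edgeR (0%). At an unadjusted p under 0.05 there were 292, of which 162 were higher with guide 2 (1.59%) and 130 lower (1.27%). With total counts in place of TMM scaling the split was 216 to 86. DESeq2 on the same genes called 2 (0.0196%), DUSP1 and PNMA1. The count by edgeR rose to 32 without non-targeting replicate 1, a library that carries no guide of the pair but enters the shared estimate of spread, and to 19 with the 4 guide libraries alone. Both guide 2 libraries lay above both guide 1 libraries at 2240 genes (21.9%) and below them at 2268 (22.2%). The median absolute log2 difference was 0.14 between the replicates of guide 1, 0.17 between those of guide 2 and 0.15 between the guide means. The replicate values compare single libraries, while each guide mean averages 2 libraries and so scatters less. The last value is therefore not on a like footing with the others.

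DUSP1 had the smallest p of all genes. It lies on chromosome 5 and encodes a phosphatase that switches off MAP kinases and is itself induced by stress, growth factors and glucocorticoids. It stood at 123, 175 and 110 CPM in the non-targeting libraries, at 48.3 and 58.7 CPM with guide 1 and at 117 and 137 CPM with guide 2. Both guide 1 libraries were below every other library, while both guide 2 libraries lay inside the non-targeting range. The ratio of guide 2 to guide 1 was 2.38 (95% interval 1.78 to 3.18), a log2 difference of 1.25 (SE 0.20, unadjusted p = 1.52e-05, adjusted p = 0.156, by the same edgeR fit). Against non-targeting, the log2 fold change was -1.35 with guide 1 and -0.10 with guide 2, both from the same 3 controls. In that comparison DUSP1 was 1 of 3 genes called with guide 1 (0.0294%), and it was not called with guide 2, where 1 gene was (0.00979%). The guide difference was called in 7 of the 18 fits made, and its log2 value lay between 1.12 and 1.40 in all of them.

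PNMA1, a gene of the family of capsid-like paraneoplastic antigens, followed. It stood at 93.4, 101 and 101 CPM in the non-targeting libraries, at 55.0 and 56.3 CPM with guide 1 and at 80.1 and 106 CPM with guide 2. The guide 1 libraries were close to each other and below all the rest, and those of guide 2 lay on either side of the non-targeting range. The log2 difference was 0.75 (SE 0.15, adjusted p = 0.854, by the same edgeR fit), called in 5 of the 18 fits. It was 0.53 without guide 2 replicate 2 and 0.94 without guide 2 replicate 1.

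**Figure D1:**
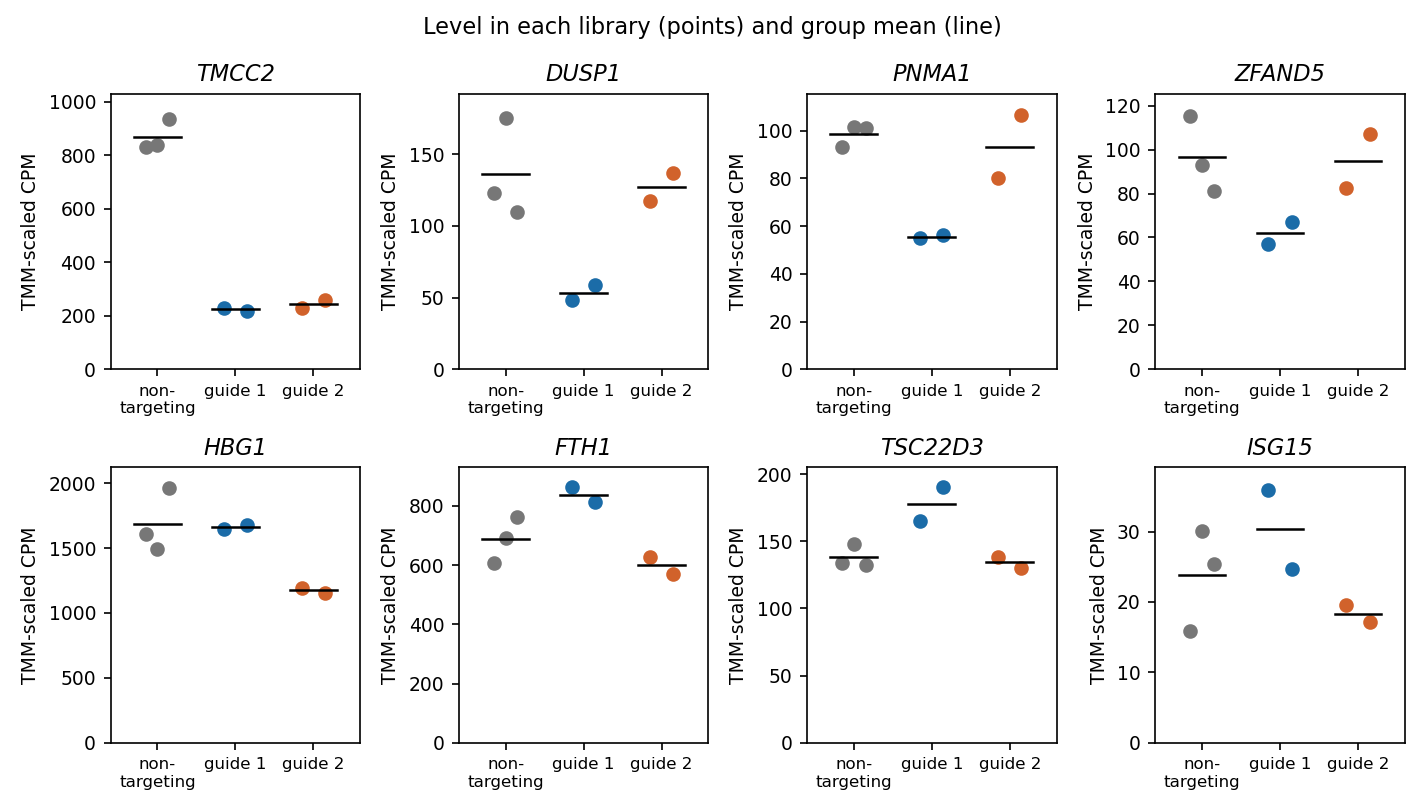
Level of 8 genes in each library, in TMM-scaled CPM on axes from 0; points are libraries (3 non-targeting, 2 guide 1, 2 guide 2) and lines are group means. TMCC2 is at 219 to 260 CPM in the 4 guide libraries, DUSP1 is at 48.3 and 58.7 CPM with guide 1 alone, and HBG1 is at 1195 and 1152 CPM with guide 2 alone.

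With these, the rule for named genes gave 12 genes of smallest p above guide 1, none of them called by edgeR. ZC3H7A, a zinc-finger RNA-binding protein gene, stood at 13.0 and 12.1 CPM with guide 1, at 19.8 and 23.7 CPM with guide 2 and at 16.8 to 19.8 CPM without targeting, so the guides lay on opposite sides of the controls (log2 difference 0.80, SE 0.18). BTNL9, a butyrophilin-like surface protein gene, was at 3.05 and 2.80 CPM with guide 1, at 6.83 and 6.70 CPM with guide 2 and at 3.88 to 5.74 CPM without targeting (log2 difference 1.21, SE 0.28). WDR5, a core subunit of histone H3 lysine 4 methyltransferase complexes, was at 4.33 and 4.86 CPM with guide 1 and at 8.23 and 8.12 CPM with guide 2, with 5.82 to 7.48 CPM in the controls. These 3 genes were the members with guide 1 below and guide 2 above the non-targeting range.

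In the other genes above guide 1, the guide 1 libraries were usually the ones away from the controls. ZFAND5, which encodes a proteasome activator, stood at 57.0 and 67.0 CPM with guide 1, at 82.8 and 107 CPM with guide 2 and at 81.3 to 116 CPM without targeting (log2 difference 0.61). CREG1, a lysosomal glycoprotein gene, stood at 30.4 and 31.3 CPM with guide 1, at 42.8 and 48.0 CPM with guide 2 and at 41.9 to 58.3 CPM without targeting (0.56). NDC80, a kinetochore subunit gene, stood at 7.98 and 9.06 CPM with guide 1 and at 14.5 and 12.5 CPM with guide 2 (0.66). The log2 differences of MAFF, a small MAF transcription factor gene, TRAPPC8, a vesicle tethering subunit gene, and ATXN2, an RNA-binding protein gene, were 0.72, 0.83 and 0.59. CAPRIN2, an RNA-binding protein gene, differed in another way, with guide 1 at 37.9 and 39.5 CPM inside and guide 2 at 56.6 and 55.3 CPM above the control range of 35.7 to 47.8 CPM (0.53).

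HBG1 was the most abundant of the 12 genes below guide 1. It lies on chromosome 11 and encodes a fetal gamma-globin chain. It stood at 1610, 1491 and 1963 CPM in the non-targeting libraries, at 1643 and 1676 CPM with guide 1 and at 1195 and 1152 CPM with guide 2. Here the guide 1 libraries sat inside the control range and the guide 2 libraries below it, the reverse of the pattern at DUSP1. The log2 difference was -0.50 (SE 0.13, unadjusted p = 0.00174, adjusted p = 0.983, by the same edgeR fit).

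HBG1 and HBG2, the other gamma-globin gene, can trade reads. Their 444 coding bases, taken from GENCODE v29, differ at 2 positions, 1 of which lies in the stretch from base 395 to 424 of the coding sequence, in capitals.

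HBG1: agaagatggtgactgCagtggccagtgccc
HBG2: agaagatggtgactgGagtggccagtgccc

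HBG2 stood at 16211 and 16087 CPM with guide 1 and at 13509 and 14433 CPM with guide 2, with 14771, 17786 and 20754 CPM in the controls (log2 difference -0.21, SE 0.14). HBG1 took 9.20% (95% Wilson interval 9.07% to 9.34%) and 9.44% (9.30% to 9.57%) of the counts of both genes with guide 1. It took 8.13% (8.0% to 8.27%) and 7.39% (7.27% to 7.52%) with guide 2, and 9.83%, 7.73% and 8.64% without targeting. The guide intervals do not meet, yet the controls alone spread over most of that span. The intervals cover counting error only, and these libraries carry no molecular identifiers. How the authors assigned reads that fit both genes is not given in the sources used here, so the value of HBG1 by itself is uncertain.

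FTH1, the ferritin heavy chain gene, stood at 608, 691 and 764 CPM without targeting, at 864 and 812 CPM with guide 1 and at 628 and 571 CPM with guide 2. Guide 1 was above every control, and guide 2 was at the low end (log2 difference -0.48, SE 0.13). TSC22D3, the glucocorticoid-induced leucine zipper gene, stood at 165 and 191 CPM with guide 1 and at 139 and 130 CPM with guide 2, near its control levels of 134, 148 and 132 CPM (log2 difference -0.41). VAT1, a membrane transport protein gene, stood at 99.1 and 88.8 CPM with guide 1 and at 76.3 and 62.8 CPM with guide 2 (-0.43).

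SNHG9, a small nucleolar RNA host gene, was at 5.32 and 5.42 CPM with guide 1, at 2.06 and 2.83 CPM with guide 2 and at 2.83 to 3.51 CPM without targeting (log2 difference -1.13). CLCF1, a cytokine gene of the interleukin 6 family, stood at 9.46 and 5.88 CPM with guide 1 and at 4.21 and 3.59 CPM with guide 2 (-0.97, and -0.59 without guide 1 replicate 1). MICALL1, an endosome recycling gene (-0.74), and NEURL1, a ubiquitin ligase gene (-0.88), were above the controls with guide 1. TRMT61A, a tRNA methyltransferase subunit gene, was below them with guide 2 (-0.66). NDE1, a dynein regulator gene, was above the controls with guide 1 (-0.64). POU2F1, the OCT1 gene, had guide 1 above and guide 2 below the control range (-0.64, and -0.42 without guide 2 replicate 1).

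The position of the guides against the non-targeting range was counted in the same way for every gene. Of the 12 named genes above guide 1, 8 had both guide 1 libraries outside that range and guide 2 not, 1 had guide 2 alone outside, and 3 had both. Of the 12 below guide 1 these counts were 7, 3 and 1, and 1 gene, IFI6, had neither. Among all genes tested guide 1 alone was outside at 785 of 5131 genes that were higher and 801 of 5079 that were lower with guide 2, and guide 2 alone at 485 and 428. Guide 1 alone was thus the more frequent of the pair in both sets of the whole table. The named genes are part of that table and were picked by this same contrast, so their counts add no separate evidence. The control range includes non-targeting replicate 1, whose counts ran with transcript GC content at -0.684. Guide 2 replicate 2 was at -0.31, and the guide 1 libraries at 0.411 and 0.274. Whether this shaped the counts was not tested.

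**Figure D2:**
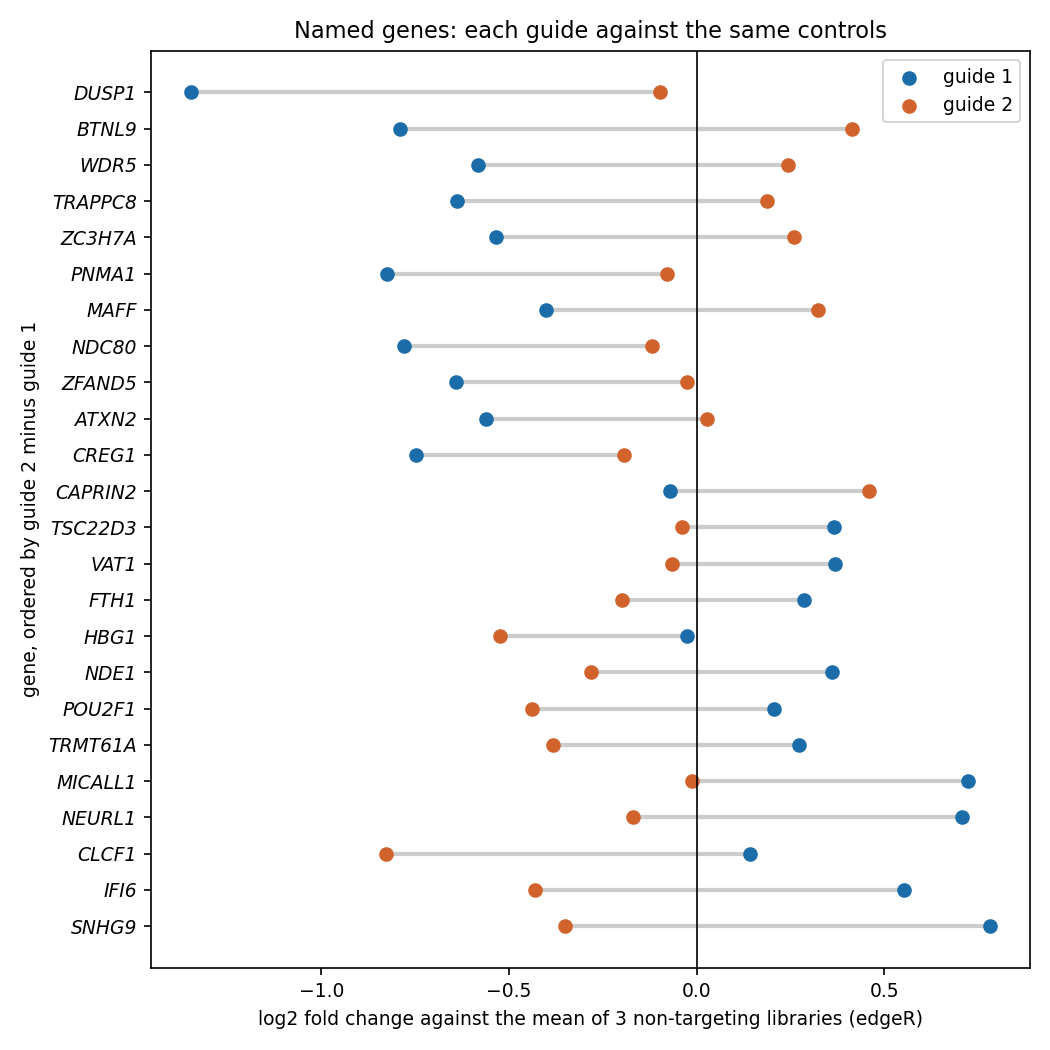
Log2 fold change of each guide against the mean of the 3 non-targeting libraries (horizontal axis, edgeR) for the 24 named genes, ordered by guide 2 minus guide 1; the grey line joins the guides. DUSP1 is at -1.35 with guide 1 and -0.10 with guide 2, while HBG1 is at -0.03 and -0.52; both guides share their controls.

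DUSP1 was then set among genes of its pathway. MAP kinase phosphatases and feedback inhibitors act against the same kinases, and immediate early genes are transcription factors that these kinases switch on. Of 14 tested phosphatases and inhibitors, DUSP1 among them, 0 were called, 6 were positive and 8 negative, with a median log2 difference of -0.09 beside 0.001 over all genes. The median was -0.05 without guide 1 replicate 1, -0.04 without guide 2 replicate 1 and -0.14 without guide 2 replicate 2. At an unadjusted p under 0.05 SPRED1 was higher beside DUSP1, at 0.492 and 0.841 CPM with guide 1 and 1.78 and 2.64 CPM with guide 2. DUSP7 was lower at that p. Over all genes 1.59% were higher and 1.27% lower. SPRED1 and DUSP7 were at under 3 CPM in every library, and both were noted after their values were seen. Of 21 immediate early genes 0 were called and 0 passed an unadjusted p of 0.05, with a median of -0.004. With correction for GC content and length, 3 passed it, all higher with guide 2, and the median was 0.017. In that fit 255 of all 10212 genes were higher and 228 lower at that p.

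FOS, the AP-1 partner of JUNB, was chosen after its values were seen. It stood at 64.7 and 61.8 CPM with guide 1 and at 67.3 and 69.7 CPM with guide 2, against 107 to 141 CPM without targeting, so the guides lay together and away from the controls. The log2 difference between guides was 0.11 (SE 0.15), beside 1.25 at DUSP1. IER2, an immediate early gene, was at 33.4 and 35.7 CPM with guide 1 and at 39.3 and 41.3 CPM with guide 2 (0.22), and MYC at 26.9 and 22.6 against 21.5 and 18.7 CPM (-0.30, and -0.17 without guide 1 replicate 1).

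DUSP1 is also a glucocorticoid-induced gene, and the cells had been expanded with dexamethasone in all groups. Of 13 other such genes tested 0 were called. At an unadjusted p under 0.05 0 were higher with guide 2, beside 1.59% of all genes. At that p 3 were lower, beside 1.27% of all genes: TSC22D3, DDIT4 and the metallothionein gene MT2A. That number was 0 without guide 1 replicate 2 or guide 2 replicate 2 and 1 without guide 1 replicate 1. DDIT4, an inhibitor of mTOR signalling, stood at 332 and 334 CPM with guide 1 and at 270 and 235 CPM with guide 2, with 213 to 280 CPM in the controls (log2 difference -0.40). MT2A stood at 23.3 and 24.1 CPM with guide 1 and at 20.9 and 13.8 CPM with guide 2 (-0.45), a value of -0.18 without guide 2 replicate 2 and -0.78 without guide 2 replicate 1. The list median was -0.13, and -0.22 without guide 2 replicate 1. Whether dexamethasone played a part in the difference at DUSP1 was not tested.

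The ATF4 and unfolded protein response genes, which meet amino acid shortage and misfolded proteins, were negative at 27 of 37, with a median of -0.12 and 0 called. Among all genes 5080 of 10212 were negative. Under total counts 21 of 37 were negative in the list and 3888 of 10212 among all genes. At an unadjusted p under 0.05 3 were lower, beside 1.27% of all genes: DDIT4, DDIT3 and EDEM1. That number was 0 when guide 1 replicate 1, guide 1 replicate 2 or guide 2 replicate 2 was left out. Without guide 2 replicate 2 the median was -0.07. DDIT3, the CHOP gene, stood at 79.4 and 88.9 CPM with guide 1, at 69.7 and 58.2 CPM with guide 2 and at 45.1 to 63.6 CPM without targeting (-0.40). HSPA5, the main endoplasmic reticulum chaperone gene, stood at 1161 and 1218 CPM with guide 1, at 1046 and 997 CPM with guide 2 and at 870 to 970 CPM without targeting (-0.22, unadjusted p = 0.0659). For HSPA5 both guides were above all controls, guide 1 further than guide 2.

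Interferon-stimulated genes encode antiviral effectors. Of 33 tested 23 were negative, with a median of -0.17 and 0 called, and at an unadjusted p under 0.05 4 were lower and 1 higher. Among all 10212 genes 5080 were negative, and at that p 1.27% were lower and 1.59% higher. ISG15, a ubiquitin-like modifier gene, stood at 15.9, 30.1 and 25.4 CPM without targeting, at 36.0 and 24.7 CPM with guide 1 and at 19.5 and 17.2 CPM with guide 2. The guides did not overlap, but the controls covered both guide 2 libraries and the lower guide 1 library (log2 difference -0.72, SE 0.26, unadjusted p = 0.0133). The log2 value was -0.43 without guide 1 replicate 1. IFI6, an interferon-induced gene on chromosome 1, stood at 9.95 and 5.88 CPM with guide 1 and at 3.74 and 4.25 CPM with guide 2 (-0.98, and -0.56 without guide 1 replicate 1). IFITM2, which encodes an antiviral membrane protein, stood at 15.4 and 14.8 against 11.4 and 9.72 CPM (-0.51). IFIH1, the RNA sensor MDA5, went the other way, at 3.55 and 4.20 CPM with guide 1 and 5.89 and 6.51 CPM with guide 2 (0.68). Without guide 1 replicate 1, 0 of the list passed an unadjusted p of 0.05.

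Globin chains and AHSP, the chaperone of free alpha chains, make up much of the RNA of these cells. All 6 alpha-like genes tested, AHSP included, had both guide 2 libraries below both guide 1 libraries, beside 22.2% of all genes, with a median log2 difference of -0.24 and 0 called. HBA2 stood at 32319 and 31317 CPM with guide 1, at 27697 and 27348 CPM with guide 2 and at 26539 to 34966 CPM without targeting (-0.21, SE 0.13). HBZ, the embryonic zeta chain gene, stood at 36.1 and 40.0 CPM with guide 1 and at 29.5 and 22.6 CPM with guide 2 (-0.55, unadjusted p = 0.0257, and -0.36 without guide 2 replicate 2). HBA1 and HBA2 share most of their sequence, so each is uncertain by itself. The alpha-like median was -0.10 after correction for GC content.

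All 5 beta-like genes tested were negative (median -0.12), beside 5080 of all 10212 genes. Of the 5, HBG1 alone was lower at an unadjusted p under 0.05, beside 1.27% of all genes. HBB, the adult beta chain gene, stood at 207396 and 204590 CPM with guide 1 and at 192829 and 186968 CPM with guide 2 (-0.12, SE 0.12). HBE1, the embryonic epsilon chain gene, differed by -0.05 (SE 0.22), a sign that turned with total counts. Of 33 regulators of the fetal genes 0 were called. At an unadjusted p under 0.05 1 was lower, ARID3A, a DNA-binding factor gene (-0.42), beside 1.27% of all genes. At that p 1 was higher, the nuclear receptor gene NR2C1 (0.43), beside 1.59% of all genes. KLF1, the erythroid factor that drives HBB, differed by 0.15 (SE 0.15).

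Iron genes surround FTH1. Of 20 tested 13 were negative, beside 5080 of all 10212 genes, with a median of -0.11 (-0.16 without guide 2 replicate 1) and 0 called. HMOX1, the haem-degrading oxygenase gene, stood at 71.9 and 70.7 CPM with guide 1, at 58.9 and 48.9 CPM with guide 2 and at 37.7 to 52.5 CPM without targeting (-0.40, unadjusted p = 0.0272). FTL, the ferritin light chain gene, differed by -0.15 (SE 0.13), so of the ferritin chains the heavy one carried the larger difference in value, a contrast that was not tested.

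Cytosolic ribosomal protein genes encode the subunits of the ribosome. Of 78 tested 71 were negative, beside 5080 of all 10212 genes, with a median of -0.17 and 0 called. At 61 both guide 2 libraries lay below both guide 1 libraries, beside 22.2% of all genes. With total counts 59 of 78 were negative, beside 3888 of all 10212 genes. RPL30, of the large subunit, stood at 218 and 205 CPM with guide 1 and at 171 and 146 CPM with guide 2 (-0.42), and RPS28, of the small subunit, at 1010 and 984 CPM with guide 1 and at 869 and 725 CPM with guide 2 (-0.32, unadjusted p = 0.0520, and -0.20 without guide 2 replicate 2). RPS28 was at 718 CPM in non-targeting replicate 1 and at 965 and 1012 CPM in the other controls. Ribosomal protein genes took 8.15% of the counts of guide 2 replicate 2 and 8.24% of those of non-targeting replicate 1, against 8.90% to 9.16% in the other 5 libraries. Without guide 2 replicate 2 the list median was -0.08.

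**Figure D3:**
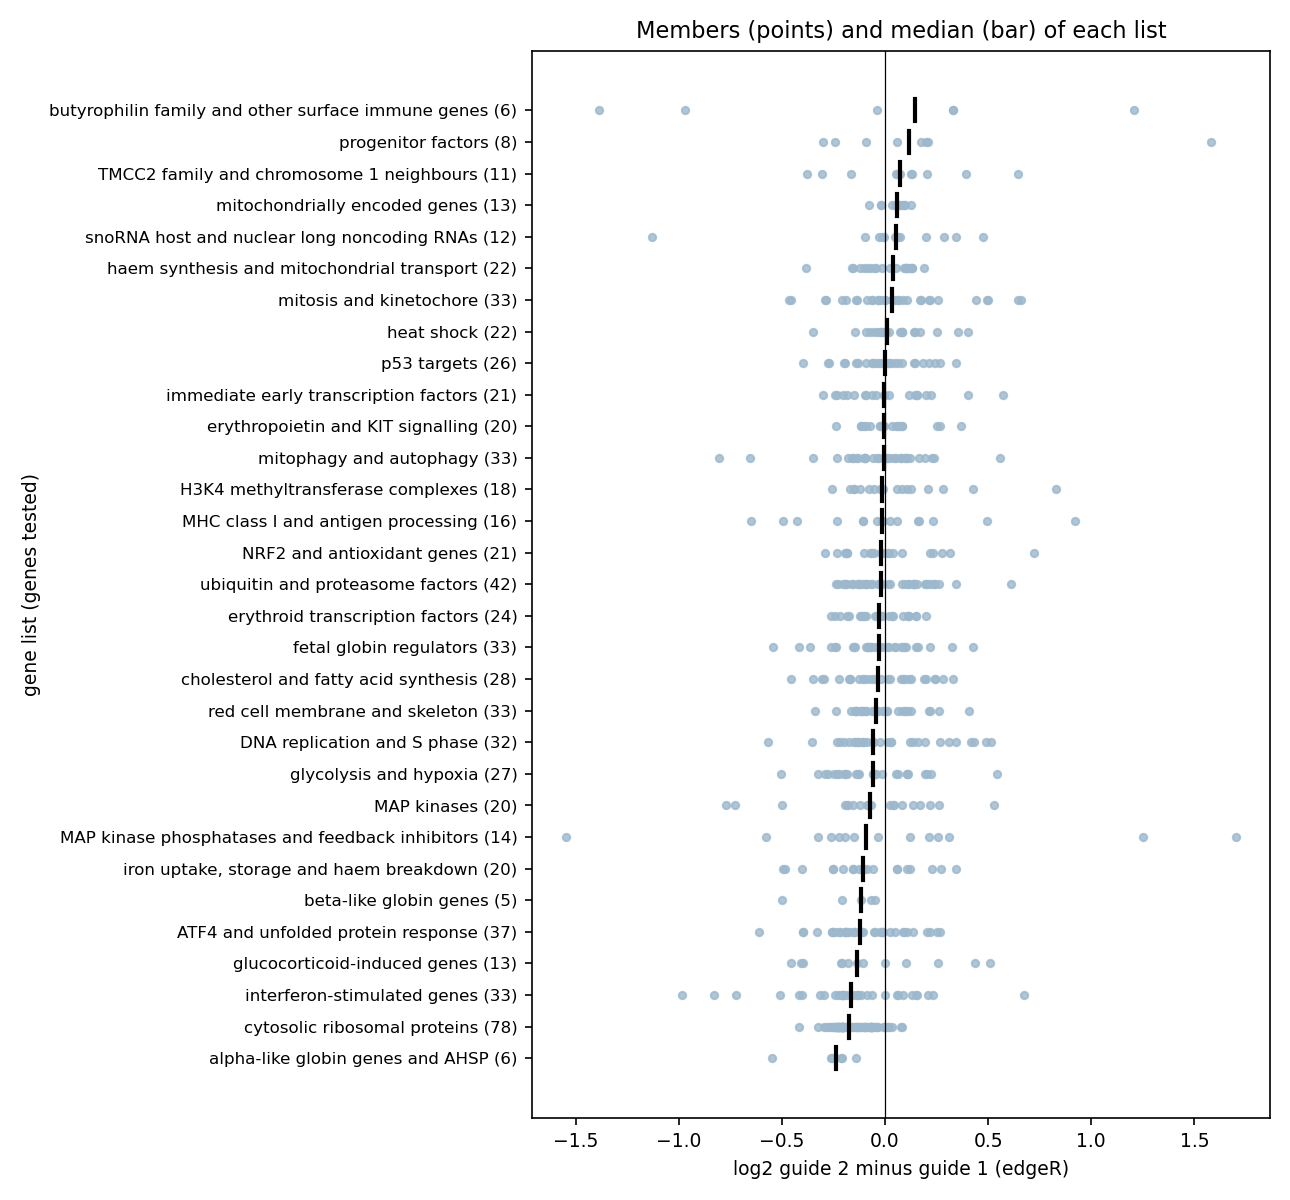
Log2 difference between guide 2 and guide 1 (horizontal axis, edgeR) for the tested members of each gene list with at least 5 (points) and their median (black bar). The medians run from -0.24 in the alpha-like globin list to 0.14 in the butyrophilin list, and the list that holds DUSP1, at 1.25, has members from -1.55 to 1.70.

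The list of genes near TMCC2 by position or family held 11 tested genes, TMCC2 itself among them. Of these 8 were positive, beside 5132 of all 10212 genes, and 0 were called. The list median was 0.08, and 0.03 without guide 2 replicate 2. ELK4, an ETS transcription factor gene on chromosome 1, was the one at an unadjusted p under 0.05, at 5.61 and 4.67 CPM with guide 1 and at 7.76 and 8.31 CPM with guide 2 (0.64, SE 0.28), and it did not pass that p when any 1 guide library was left out. The controls ran from 5.60 to 9.63 CPM and covered guide 2. Over all genes 1.59% were higher with guide 2 at an unadjusted p under 0.05.

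Guide 2 and guide 1 libraries also differed in how counts followed transcript GC content. Among 9428 genes with a GENCODE v29 value the log2 difference ran with GC content at a Spearman correlation of -0.394 across genes, which are not replicates. The median was 0.16 in the decile of genes with least GC and -0.12 in the decile with most. Genes higher with guide 2 at an unadjusted p under 0.05 had a median GC of 44.9%, and those lower 56.9%, beside 49.2% over all. Guide 2 replicate 2 (-0.31 with GC) and non-targeting replicate 1 (-0.684) were negative, guide 2 replicate 1 was near 0 (0.084), and the other 4 libraries were between 0.274 and 0.421.

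A correction that removed the trend with GC content and transcript length in each library, chosen after the trend was seen, gave 2 called genes, DUSP1 (log2 difference 1.30, adjusted p = 0.000723) and PNMA1 (0.78, adjusted p = 0.0103, both by the edgeR quasi-likelihood test). DUSP1 has a GC content of 55.1% and PNMA1 of 53.7%, in a decile of genes whose median between guides was -0.08, so both stood against the trend. HBG1 was -0.53 and FTH1 -0.42 after correction, each with an adjusted p of 0.175. ISG15, at 64.1% GC, changed from -0.72 to -0.58, and the median of the interferon list from -0.17 to -0.07. The ribosomal protein median changed from -0.17 to -0.12, with 72 of 78 negative, beside 5337 of all 10212 genes in that fit.

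**Figure D4:**
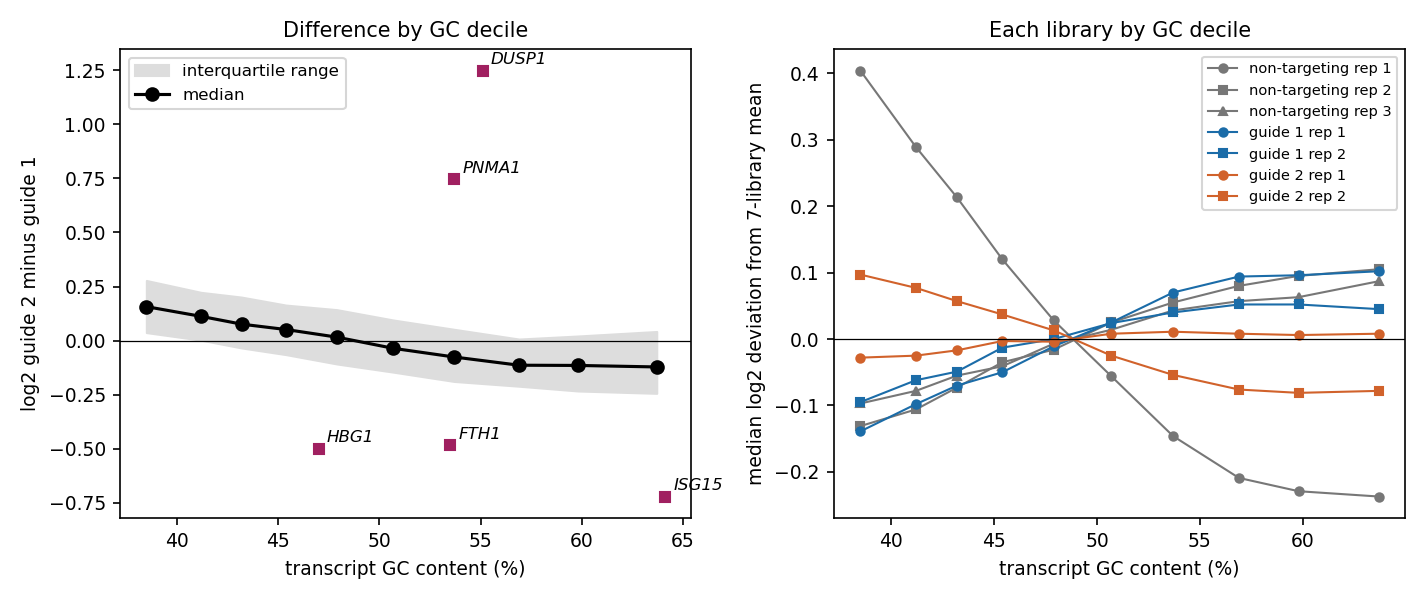
Left: median (line) and interquartile range (grey) of the log2 difference between guides by deciles of genes of rising transcript GC content, with 5 genes as squares; right: median log2 deviation of each library from the mean of all 7. The median falls from 0.16 to -0.12, non-targeting replicate 1 is the steepest library, and DUSP1 and PNMA1 lie above the trend.

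Other lists held single genes. TMOD1, a red cell membrane skeleton gene, stood at 113 and 125 CPM with guide 1, at 160 and 156 CPM with guide 2 and at 130 to 175 CPM without targeting (0.41, unadjusted p = 0.0154). INSIG1, a brake on cholesterol synthesis, stood at 129 and 127 CPM with guide 1 and at 145 and 176 CPM with guide 2 (0.33, unadjusted p = 0.0315, and 0.19 without guide 2 replicate 2). The autophagy gene GABARAP stood at 18.5 and 15.4 CPM with guide 1 and at 12.2 and 9.25 CPM with guide 2 (-0.66, unadjusted p = 0.0118). Of 22 heat shock genes tested, HSPB1 was lower (-0.35) and HSPH1 higher (0.40) at an unadjusted p under 0.05. Over all genes 1.27% were lower and 1.59% higher at that p. The markers of erythroid identity outside the globins were close, with ALAS2 at -0.10, SLC4A1 at -0.09, GATA1 at -0.11 and GFI1B at -0.22.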

How the data were processed

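RNA was measured by Smart-seq2 with Nextera-based indexing, per the labels' protocols. Raw counts of reads for 32738 gene symbols were deposited by the authors in 1 table. STAR as the aligner and GRCh37 (hg19) as the build are named per the submitters' processing notes. For the counting program, the annotation and multiply aligned reads, nothing is given in the sources used here. This chemistry does not mark strand.

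The test was the two-sided quasi-likelihood F-test of edgeR 4.0.16 (R 4.3.3) on 10212 genes kept by filterByExpr (minimum count 10). Group was the sole term, scaling was by TMM, and all 7 libraries shared the spread, leaving 4 residual degrees of freedom. Called means an adjusted p (Benjamini-Hochberg, all genes tested) under 0.05. Standard errors and 95% intervals come from that fit. Alternatives used DESeq2 1.42.0, limma 3.58.1, other scalings, filters and libraries, and a correction for GC content and length (GENCODE v29, 92.3% of tested genes matched by symbol). The scripts were tested on simulated data.

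The members and the 37 gene lists were chosen with earlier results of these data known. Named genes were TMCC2, DUSP1, PNMA1, HBG1, ISG15, genes called by edgeR or DESeq2, the 12 higher and 12 lower genes of smallest p (at least 5 CPM in a guide, guides not overlapping, no clone, pseudogene, small RNA or readthrough), and up to 4 members of each list by p. Promoter windows and symbols came from RefSeq on GRCh38.p14.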

Additional observations from a re-analysis of the deposited data

How the results depend on the processing

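Across 17 alternatives TMCC2 kept its sign and was not called in any, at 0.04 to 0.22 when each library was left out. The count of called genes was 0 with DESeq2 size factors, total counts, TMM without globin genes, a 5 CPM minimum and limma-voom. It was 2 without a filter on low counts, 2 by DESeq2, 2 with the GC content and length correction (chosen after the data were seen) and 19 with the 4 guide libraries alone. Leaving out 1 library gave 0 to 32 genes: 32 without non-targeting replicate 1, 1 without non-targeting replicate 2 (DUSP1) and 0 on leaving out each of the other 5 in turn; the cause was not tested. Where a guide kept 1 library, that library was assumed to vary like the other groups. With the replicate number as a block 1 gene was called, DUSP1 (adjusted p = 0.0275, edgeR). Deviations of same-numbered guide libraries correlated at 0.028, so the numbers were not taken to pair the samples. DUSP1 was called in 7 of 18 fits, its adjusted p running from 7.23e-12 to 0.9999, and PNMA1 in 5. Over 67 genes described, DUSP1 and PNMA1 included, 2 of 1134 values changed sign, both at HBE1 (0.017 with total counts, and 0.091 without guide 1 replicate 2 in a range of -0.177 to 0.091 when 1 library was left out), and 44 passed the threshold that the value reported missed. Depth limits genes such as DUSP7, which had at most 1.97 CPM in a library.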
